A study of Mus musculus with 45 samples.

Results

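Ppargc1a, Ppargc1b, Pprc1, Tfam, Nrf1, Esrra, Gabpa and Polrmt encode the coactivators, transcription factors and mitochondrial DNA-binding proteins at the core of mitochondrial biogenesis. They were taken by gene symbol from the deposited table of read counts, where they are 8 of 54532 rows. All 8 were protein-coding genes that passed the minimum of 1 read in every comparison, so none was lost to a filter.

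PGC-1 coactivators carry no DNA-binding domain of their own and act on nuclear genes through the transcription factors they dock on. Among these are nuclear respiratory factor 1 (NRF1, the product of Nrf1 and not of Nfe2l1), the ETS protein GABPα (the product of Gabpa, also known as NRF2α), and the orphan nuclear receptor ERRα (the product of Esrra). These factors drive nuclear genes for respiratory chain subunits and for TFAM, which packages mitochondrial DNA and recruits the mitochondrial RNA polymerase POLRMT to its promoters. In brain tissue PGC-1α is known for its high level in inhibitory interneurons and for its protective role against oxidative stress.

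The libraries came from primary hippocampal neurons of newborn C57BL/6N mice, treated with AraC to limit dividing cells. They were used on day 10 or 11 in vitro per the labels, while the study's methods give day 11 for RNA sequencing. Untreated cultures (control) were compared with cultures treated with 50 µM bicuculline (Bic), a GABA type A receptor antagonist that starts action potential (AP) firing, for 0.5, 1 or 2 h. In the short protocol (SP), the sodium channel blocker tetrodotoxin (TTX, 1 µM), alone or together with the glutamate receptor agonist NMDA (30 µM), was added for 0.5 h to cultures already in Bic for 0.5 h. The long protocol (LP) doubled each of these times to 1 h, and included a further intervention with the glutamate transporter inhibitor TBOA (50 µM) without TTX. Bic was present throughout. The 5 culture preparations, taken from the replicate numbers 1, 3, 6, 7 and 8 of the labels, each gave 1 library for every one of the 9 conditions, 45 in all. TTX against Bic of the same total time measures the passive effect of stopping AP firing, TTX/NMDA against TTX the active effect of NMDA, TTX/NMDA against Bic their total, and TBOA against 2 h Bic the effect of glutamate spillover. Such cultures are bath-treated whole dishes of mixed hippocampal neurons with some glia, and in bulk RNA fewer cells of a type and less RNA per cell cannot be told apart.

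Reads assigned to genes ranged from 11316580 to 81129276 per library, and the 8 genes had between 72 reads (the lowest library for Ppargc1b) and 6230 reads (the highest for Ppargc1a). Fos, an immediate early gene used to check the labels, had 29 to 46 CPM (counts per 1000000 reads on genes) in the controls and 1130 to 1750 CPM after 2 h Bic. The summed level of 9 neuronal markers was 6460 to 8590 CPM over the 45 libraries, and that of 5 microglial markers was 3.03 to 5.79 CPM, with P2ry12 at 0 in 6 libraries. The summed level of 6 astrocyte markers was 389 to 805 CPM with LP TTX and 688 to 1430 CPM with LP TTX/NMDA, and that of 5 oligodendrocyte-lineage markers was 68.9 to 133 CPM and 133 to 269 CPM. All 6 astrocyte markers, 3 of 5 oligodendrocyte-lineage markers and none of the neuronal markers rose with LP TTX/NMDA against LP TTX, while 4 of 9 neuronal markers fell (2 higher and 5 lower in the paired fit), in a comparison that called 46.9% of genes with a mean of at least 1 CPM. The part of these shifts in the results on LP TTX/NMDA was not tested.

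The promoters of these genes are shown first because the members are themselves connected: NRF1 and GABPα are textbook regulators of several of the others. RefSeq gave the sequence before the transcription start for 7 of the 8 genes in assembly GRCm38.p6, with 2 starts for Nrf1, and the 250 bases before each start were searched on both strands. The only Pprc1 start lay 11653 bases inside the annotated gene and the second Nrf1 start 28333 bases inside, so these windows are not at the annotated gene start. The letters searched were GCATGCG for the core of the NRF1 motif, CCGGAAG for the core of the ETS motif that GABP binds, TGACG for a cAMP response element half-site and AAGGTCA for the half-site of ERR receptors. The NRF1 core was in the windows of Esrra, Gabpa and Polrmt (3 of 7 genes) and in 3.02% of 32851 windows of the same length. The ETS core was in those of Tfam, Gabpa and Polrmt (3 of 7 genes) and in 6.91% of all windows. The cAMP response element half-site was in that of Ppargc1a (1 of 7 genes) and in 17.8% of all windows, and the ERR half-site was in 0 of 7 and in 4.08% of all windows. A match of letters is a description and not evidence of binding.

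For Polrmt, Esrra and Ppargc1a, the stretches outside annotated exons carry the matches and are printed 5′ to 3′ on the strand of the gene, which is the minus strand for all 3, with the matched letters in capitals. The Polrmt stretch is chr10:79746582-79746831 and holds the NRF1 core and, closer to the start, the ETS core, each in reverse orientation. The Esrra stretch is chr19:6921814-6922058 and holds the NRF1 core in forward orientation. The Ppargc1a stretch is chr5:51567727-51567975 and holds the half-site in reverse orientation.
Polrmt: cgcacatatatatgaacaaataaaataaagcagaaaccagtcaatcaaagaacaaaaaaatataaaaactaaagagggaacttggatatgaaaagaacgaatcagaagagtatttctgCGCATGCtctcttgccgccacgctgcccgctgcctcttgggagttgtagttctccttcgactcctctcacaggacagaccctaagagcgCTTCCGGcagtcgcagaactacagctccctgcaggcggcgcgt
Esrra: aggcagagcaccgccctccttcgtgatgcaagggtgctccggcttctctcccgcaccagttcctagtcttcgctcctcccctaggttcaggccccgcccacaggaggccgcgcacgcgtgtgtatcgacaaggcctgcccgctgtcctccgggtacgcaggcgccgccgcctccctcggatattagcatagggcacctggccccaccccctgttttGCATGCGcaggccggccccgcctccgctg
Ppargc1a: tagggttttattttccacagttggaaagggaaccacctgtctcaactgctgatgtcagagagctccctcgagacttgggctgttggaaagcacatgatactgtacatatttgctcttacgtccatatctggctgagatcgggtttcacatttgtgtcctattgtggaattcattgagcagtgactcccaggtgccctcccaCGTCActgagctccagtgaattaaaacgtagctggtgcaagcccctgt

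In Tfam and Gabpa, the pair that changed most after 2 h Bic, the windows overlap first exons of the GENCODE annotation, so only 30 bases around each match are given. The Tfam site lies at chr10:71238074-71238103 on the minus strand, 47 to 41 bases before the RefSeq start. The Gabpa sites lie on the plus strand at chr16:84835019-84835048, 93 to 87 bases before the start, and at chr16:84835094-84835123, where the NRF1 core matches on both strands of the same overlapping 8 bases next to the start.
Tfam ETS core: tcctgccgcggaCCGGAAGtccgggcttcc
Gabpa ETS core: ggagggtaagtgCTTCCGGgtccctcagct
Gabpa NRF1 core: ctcttggagacactgcactgtaCGCATGCG

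Levels were also compared per length of exon, the union of all annotated exons of a gene, which can exceed the length of the transcript present. On this scale Ppargc1a was highest of the 8 genes, with a median of 11.0 CPM per kb over the 45 libraries. Esrra followed at 9.82 CPM per kb, Tfam at 8.15, Polrmt at 6.35, Pprc1 at 5.04 and Gabpa at 3.99. Ppargc1b and Nrf1 had the lowest medians, 1.64 and 1.62 CPM per kb. All 8 genes were detected in every library and none moved far: the highest and the lowest of a gene's 9 condition means differed by 1.11-fold for Nrf1, 1.19-fold for Ppargc1a, 1.23-fold for Esrra, 1.24-fold for Pprc1, 1.28-fold for Polrmt, 1.40-fold for Ppargc1b, 1.42-fold for Tfam and 1.58-fold for Gabpa.

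**Figure D1:**
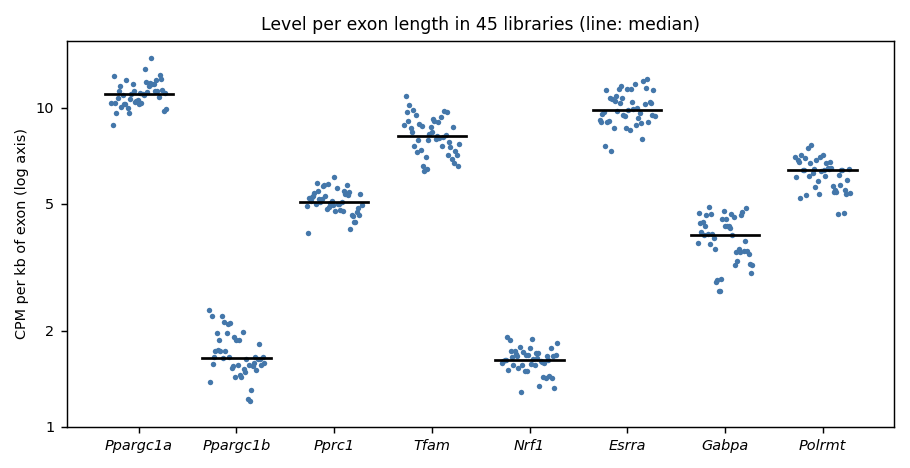
Level of each gene per kb of exon (CPM per kb, log axis) in each of the 45 libraries (points) with the median (line). Ppargc1a, Esrra and Tfam lie highest, with medians of 11.0, 9.82 and 8.15 CPM per kb, and Ppargc1b and Nrf1 lie lowest, at 1.64 and 1.62.

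Over the 8 genes, AP firing lowered Tfam and Gabpa at 2 h. The 1 h TTX intervention was followed by higher Tfam and Gabpa and lower Esrra than in firing cultures. With 1 h TTX/NMDA, Pprc1 was lower and Gabpa and Esrra were higher than with TTX alone. Against 1 h Bic, the level just before the intervention, Pprc1 was called as lower, and Gabpa and Esrra were not called. Ppargc1a, Ppargc1b, Nrf1 and Polrmt were called in none of the 14 main edgeR tests, which had no term for the culture preparation. Among the other fits without that term, some called Ppargc1b (such as DESeq2) or Polrmt (with 1 preparation left out). A gene was called where its p-value from edgeR's quasi-likelihood test, adjusted over all genes tested (Benjamini-Hochberg), was under 0.05. Where a fit that compares libraries within each culture preparation (the paired fit, on genes with sufficient reads) gave another call, its adjusted p stands beside the result.

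After 0.5 h Bic no member was called by edgeR, in the paired fit or by DESeq2, and 0 of 8 had an unadjusted p under 0.05, against 0.289% of all genes called in either direction. After 1 h Bic edgeR and DESeq2 called no member, 1 of 8 (Tfam) had an unadjusted p under 0.05, and 1.16% of all genes were called. The paired fit called Tfam, with 4.07% of its genes called. After 2 h Bic, edgeR called 2 of 8 members as lower (4.78% of all genes) and 0 of 8 as higher (4.24%), and the paired fit and DESeq2 added Esrra as higher (29.3% of genes called in the paired fit). Among genes with a mean of at least 1 CPM, which all 8 members exceed, 18.6% were called in either direction at 2 h.

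In the SP, no member was called for the passive effect (0 of 8 by edgeR, DESeq2 or at an unadjusted p under 0.05; 0.268% of all genes called) or for the active effect (0 of 8 by edgeR and DESeq2, 1 of 8 at an unadjusted p under 0.05; 4.28% of all genes). For the SP total effect, edgeR and DESeq2 called 0 of 8 and 2 of 8 had an unadjusted p under 0.05, against 4.30% of all genes called. The paired fit called those 2 genes, Ppargc1a as higher and Ppargc1b as lower, with 27.3% of its genes called. It also called 4 of 6 astrocyte markers and 1 of 5 oligodendrocyte-lineage markers as higher. Of 9 neuronal markers it called 2 as higher and 2 as lower. The part of these shifts in the SP total effect was not tested.

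In the LP, TTX against 2 h Bic gave 2 of 8 members higher (3.03% of all genes) and 1 of 8 lower (1.62%), and the paired fit called 6 of 8, 3 in each direction, with 32% of its genes called. TTX/NMDA against TTX gave 2 of 8 higher (11.6% of all genes) and 1 of 8 lower (11.8%), and 6 of 8 in the paired fit, in which 62.1% of genes were called. Among genes with a mean of at least 1 CPM, 10.4% were called with TTX against 2 h Bic and 46.9% with TTX/NMDA against TTX, so that the members' share in the active effect, 3 of 8, was near that of expressed genes at large. TTX/NMDA against 2 h Bic gave 1 of 8 higher (11.7% of all genes) and 1 of 8 lower (11.1%), and the paired fit called 3 of 8, with 56.6% of its genes called. TBOA against 2 h Bic gave 0 of 8 by edgeR, 1 of 8 by DESeq2, and 1 of 8 at an unadjusted p under 0.05 (0.602% of all genes), and the paired fit called the same gene, Gabpa, with 2.67% of its genes called.

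**Figure D2:**
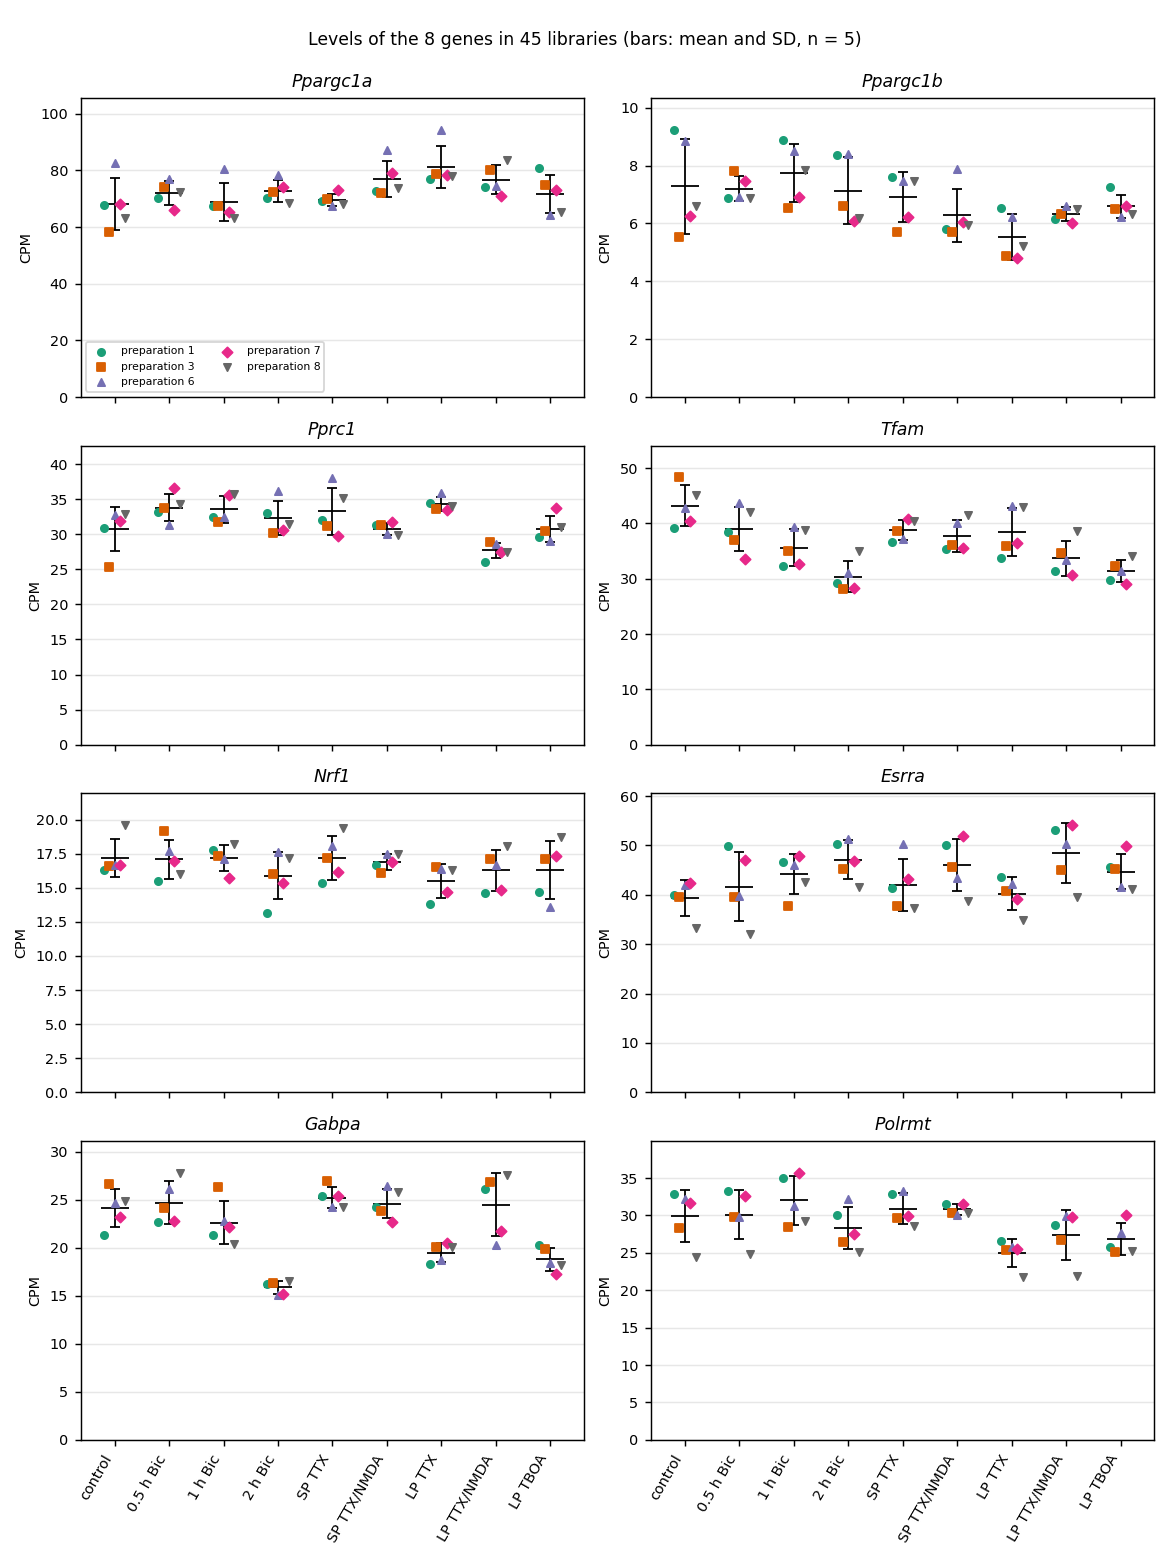
Level of each of the 8 genes (CPM, axis from 0) in each library by condition, with symbols for the 5 culture preparations and bars for the mean and SD (n = 5). Gabpa lies between 15.1 and 16.5 CPM in the 5 libraries of 2 h Bic, below every library of every other condition, and Ppargc1a stays between 58.3 and 94.3 CPM over all 45.

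Among the coactivators, Ppargc1a (PGC-1α, chr5:51454250-51567726, minus strand) hardly responded to AP firing. Its level in the controls of preparations 1, 3, 6, 7 and 8 was 68.0, 58.3, 82.6, 68.3 and 63.2 CPM, and after 2 h Bic it was 70.2, 72.4, 78.4, 74.3 and 68.6 CPM. The groups overlapped, preparation 6 was highest in both, and 4 of 5 preparations were higher after Bic, by 7.96% ± 10.8 on average (SD, n = 5). The log2 fold change was 0.08 (95% interval -0.09 to 0.25, edgeR adjusted p = 0.59), after 1 h it was 0.01 (-0.17 to 0.19) and after 0.5 h it was 0.08 (-0.10 to 0.25).

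With LP TTX, Ppargc1a reached its highest mean, with 77.0, 78.7, 94.3, 78.4 and 77.9 CPM in preparations 1, 3, 6, 7 and 8. Each preparation was above its own 2 h Bic library, by 11.5% ± 5.69 on average, although the groups overlapped. The log2 difference of 0.15 ± 0.065 (SE) was not called (edgeR adjusted p = 0.25), and the paired fit called it (0.14, adjusted p = 0.018). After LP TTX/NMDA the level was 74.2, 80.2, 74.4, 71.1 and 83.6 CPM, and the active effect was -0.09 (95% interval -0.23 to 0.05). In the SP, TTX/NMDA against 1 h Bic gave 76.9 ± 6.40 against 68.9 ± 6.81 CPM (SD, n = 5), higher in 5 of 5 preparations, with a log2 difference of 0.15 (edgeR adjusted p = 0.32; paired fit 0.15, adjusted p = 0.022). By mean, the order of the conditions ran from LP TTX through SP TTX/NMDA, LP TTX/NMDA, 2 h Bic, 0.5 h Bic, LP TBOA, SP TTX and 1 h Bic to control, and each neighbouring pair in this order overlapped.

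Ppargc1b (PGC-1β, chr18:61298136-61400431, minus strand), a close relative that shares many of the partners of PGC-1α, was the member with the fewest reads. Its level was 8.35, 6.61, 8.41, 6.09 and 6.20 CPM after 2 h Bic and 6.52, 4.87, 6.23, 4.81 and 5.22 CPM with LP TTX, in preparations 1, 3, 6, 7 and 8. Every preparation was lower with TTX, by 22.2% on average (SD 4.30), while preparations 1 and 6 stood above 3 and 7 in both conditions and the groups overlapped. The log2 difference was -0.39 ± 0.13 (SE; 95% interval -0.65 to -0.14; edgeR adjusted p = 0.070), the paired fit called it at -0.38 (adjusted p = 0.00095), and it was also called by DESeq2 (adjusted p = 0.024) and without preparation 8 (-0.41, adjusted p = 0.042). With LP TTX/NMDA the 5 libraries lay between 6.03 and 6.61 CPM, higher than with TTX in 4 of 5 preparations (log2 0.20, edgeR adjusted p = 0.28; paired fit 0.23, adjusted p = 0.032). In the SP, TTX/NMDA against 1 h Bic gave -0.30 ± 0.12 (edgeR adjusted p = 0.20; paired fit -0.30, adjusted p = 0.018), lower in 5 of 5 preparations. AP firing alone left it at -0.03 (95% interval -0.31 to 0.25) after 2 h. The means fell in the order 1 h Bic, control, 0.5 h Bic, 2 h Bic, SP TTX, LP TBOA, LP TTX/NMDA, SP TTX/NMDA and LP TTX, with overlap between all neighbours.

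Pprc1 (PRC, the PGC-1-related coactivator known for its serum-induced expression in dividing cells, chr19:46044886-46072915, plus strand) was the coactivator lowered by NMDA. With LP TTX it had 34.5, 33.7, 35.9, 33.4 and 34.1 CPM in preparations 1, 3, 6, 7 and 8, and with LP TTX/NMDA it had 26.1, 28.9, 28.7, 27.5 and 27.5 CPM. The groups did not overlap, and every preparation was lower with NMDA, by 19.1% on average (SD 3.69). The log2 difference was -0.32 ± 0.070 (SE), with an edgeR adjusted p of 0.0010. Against 2 h Bic, where it had 33.1, 30.1, 36.2, 30.7 and 31.5 CPM, LP TTX/NMDA was also lower in 5 of 5 preparations (-0.24 ± 0.077, edgeR adjusted p = 0.022). Leaving out preparation 1, 6 or 7 ended that call, with differences of -0.19, -0.18 and -0.23.

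Against 1 h Bic, the level just before the intervention, Pprc1 with LP TTX/NMDA was lower by -0.29 ± 0.078 on the log2 scale (edgeR adjusted p = 0.0050), 1 of 8 members lower against 10.2% of all genes, and 0 of 8 higher against 10.9%. There the paired fit called 4 of 8 members, with 52.3% of its genes called: Pprc1, Ppargc1b (-0.27, adjusted p = 0.025) and Polrmt (-0.21, adjusted p = 0.015; also -0.28 in edgeR without preparation 6, adjusted p = 0.035) lower, and Ppargc1a (0.17, adjusted p = 0.047) higher. Against LP TBOA the difference of Pprc1 was -0.16 ± 0.077 (edgeR adjusted p = 0.17; paired fit -0.16, adjusted p = 0.030), and the groups did not overlap. In the SP, the active effect on Pprc1 was -0.12 (95% interval -0.28 to 0.03). Its means ran from LP TTX through 0.5 h Bic, 1 h Bic, SP TTX, 2 h Bic, control, SP TTX/NMDA and LP TBOA to LP TTX/NMDA, where the last step alone separated neighbours, at 29.01 CPM for the lowest TBOA and 28.9 CPM for the highest TTX/NMDA library.

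**Figure D3:**
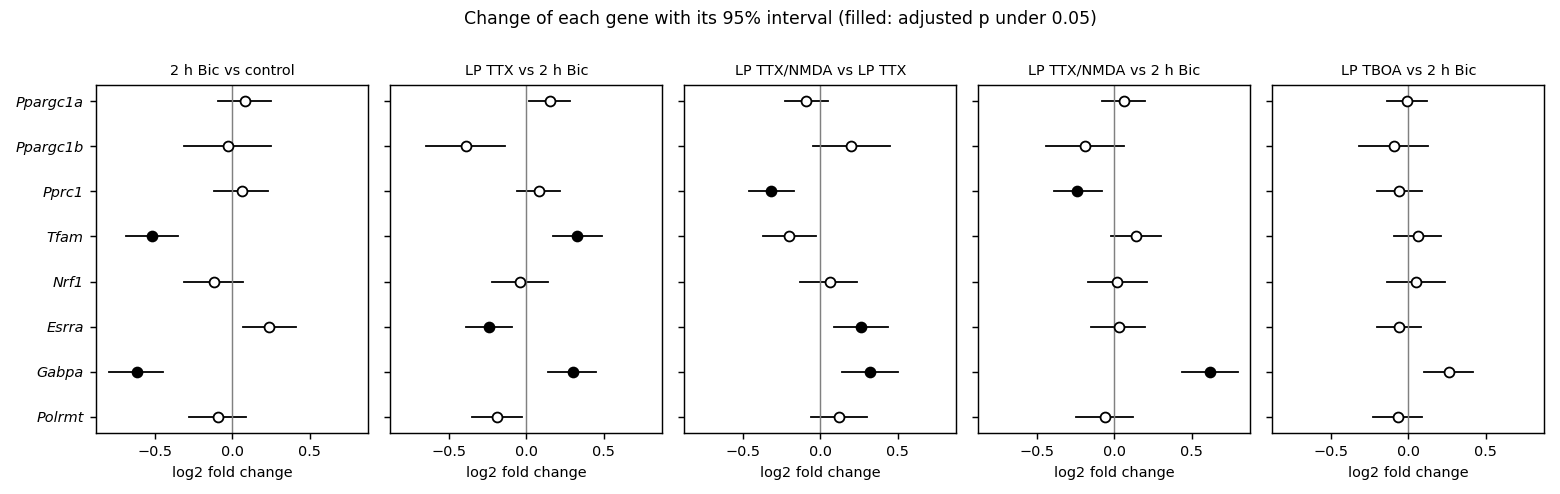
Log2 fold change of each gene with its 95% interval (lines) in 5 comparisons, from edgeR fits of the libraries of the conditions compared, where filled points have an adjusted p under 0.05. Tfam and Gabpa lie left of 0 after 2 h Bic (-0.52 and -0.62), and Gabpa lies right of 0 with LP TTX/NMDA against 2 h Bic (0.62), the same 2 h Bic libraries entering every panel but the third.

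Among the transcription factors, Gabpa (chr16:84834925-84863779, plus strand), the DNA-binding subunit of GABP, changed most. Its level in preparations 1, 3, 6, 7 and 8 was 21.3, 26.6, 24.7, 23.2 and 24.9 CPM in the controls, 22.7, 24.1, 26.2, 22.8 and 27.8 CPM after 0.5 h Bic, 21.3, 26.3, 22.8, 22.2 and 20.4 CPM after 1 h Bic, and 16.2, 16.4, 15.1, 15.2 and 16.5 CPM after 2 h Bic. The first 3 time points overlapped, and at 2 h all 5 libraries lay below all others. Gabpa thus fell by 33.9% on average (SD 5.98) in 5 of 5 preparations, a log2 fold change of -0.62 ± 0.086 (SE; edgeR adjusted p = 1.6e-06). At 1 h the difference was -0.10 (95% interval -0.28 to 0.08).

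Interrupting AP firing after 1 h was followed by intermediate levels of Gabpa, 18.3, 20.03, 18.7, 20.5 and 20.1 CPM with LP TTX. All of them lay above the 2 h Bic libraries and below all control libraries. The passive effect was 0.30 ± 0.077 (SE; edgeR adjusted p = 0.018), and leaving out preparation 3, 6 or 7 gave 0.31, 0.29 and 0.27 with adjusted p-values of 0.067, 0.076 and 0.16. With LP TTX/NMDA the level was 26.2, 26.8, 20.2, 21.7 and 27.6 CPM, on average 102% of the control of the same preparation (SD 15.6), with preparations 6 and 7 lower than the other 3. The active effect was 0.32 ± 0.088 (edgeR adjusted p = 0.0062), higher in 5 of 5 preparations though the groups overlapped. The total effect was 0.62 ± 0.089 (edgeR adjusted p = 1.3e-06), with no overlap and a mean rise of 54.0% (SD 14.4). Against 1 h Bic, the level just before the intervention, Gabpa with LP TTX/NMDA was not called. That difference was 0.11 ± 0.092 (edgeR adjusted p = 0.44), higher in 3 of 5 preparations.

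TBOA gave Gabpa levels of 20.2, 19.8, 18.4, 17.3 and 18.2 CPM, above every 2 h Bic library and higher in 5 of 5 preparations by 18.5% (SD 6.20). The difference of 0.26 ± 0.077 was not called by edgeR (adjusted p = 0.16), but was called by DESeq2 (adjusted p = 0.016) and in the paired fit (0.25, adjusted p = 0.032). LP TTX/NMDA exceeded LP TBOA by 0.38 ± 0.089 (edgeR adjusted p = 0.0020) without overlap. In that comparison 1 of 8 members was higher (8.60% of all genes) and 0 of 8 lower (7.99%), the paired fit adding Pprc1 as lower with 47.4% of its genes called.

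In the SP, Gabpa stayed at the level of the controls, with 24.2 to 26.9 CPM with TTX and 22.7 to 26.5 CPM with TTX/NMDA. The SP active effect was -0.04 (95% interval -0.20 to 0.11), and the difference between the LP and the SP active effect was 0.38 ± 0.11 (95% interval 0.16 to 0.61). Tested as an interaction over the 4 conditions, this difference missed the threshold in edgeR (adjusted p = 0.054; 0.46 without preparation 6, adjusted p = 0.033) and passed it in the paired fit (0.37, adjusted p = 0.0058) and by DESeq2 (adjusted p = 0.0050). No member was called in edgeR's test of that interaction (2.57% of all genes), where 3 of 8 had an unadjusted p under 0.05, and the paired fit called Gabpa and Ppargc1b (0.36, adjusted p = 0.033), with 25% of its genes called. For the interaction of the passive effects, 0 of 8 were called by edgeR or DESeq2, 0 of 8 had an unadjusted p under 0.05, and 0.256% of all genes were called. The condition means of Gabpa ran from SP TTX through 0.5 h Bic, SP TTX/NMDA, LP TTX/NMDA, control, 1 h Bic, LP TTX and LP TBOA to 2 h Bic, and only the last step, to 2 h Bic, separated neighbours.

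Esrra (ERRα, the receptor through which PGC-1α acts on oxidative metabolism, chr19:6910977-6921813, minus strand) had its lowest mean in the controls and its highest with LP TTX/NMDA. Its level was 39.95, 39.65, 41.95, 42.4 and 33.3 CPM in the controls of preparations 1, 3, 6, 7 and 8, and 50.2, 45.2, 51.4, 46.9 and 41.6 CPM after 2 h Bic. Preparation 8 was lowest in both, and only its 2 h library overlapped the control range. In 5 of 5 preparations the level was higher after Bic, by 19.6% on average (SD 6.78). The log2 fold change of 0.24 ± 0.083 (SE) missed the threshold in edgeR (adjusted p = 0.066) and passed it in the paired fit (0.25, adjusted p = 0.0047), by DESeq2 (adjusted p = 0.021), with RLE scaling (adjusted p = 0.043) with a stricter filter on low counts (adjusted p = 0.036) and without preparation 3 (0.26, adjusted p = 0.043).

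With LP TTX, Esrra had 43.6, 40.7, 42.3, 39.2 and 34.99 CPM, lower than 2 h Bic in 5 of 5 preparations by 14.6% on average (SD 3.08). The passive effect of -0.24 ± 0.072 was just called (edgeR adjusted p = 0.049). It was not called without preparation 1, 3, 6 or 7 (-0.22 to -0.25, adjusted p = 0.084 to 0.17), or when all 45 libraries shared a spread (-0.23, adjusted p = 0.22), and the paired fit called it (adjusted p = 0.00036). With LP TTX/NMDA the level was 53.1, 45, 50.4, 54.1 and 39.5 CPM, again higher in 5 of 5 preparations, and the active effect was 0.26 ± 0.084 (edgeR adjusted p = 0.021). Without preparation 6 or 7 it was 0.25 and 0.21, with adjusted p-values of 0.065 and 0.11. LP TTX/NMDA and 2 h Bic were close, with a total effect of 0.03 (95% interval -0.15 to 0.20). Against 1 h Bic, the level just before the intervention, Esrra with LP TTX/NMDA was not called. That difference was 0.12 ± 0.087 (edgeR adjusted p = 0.38), higher in 4 of 5 preparations. The counting kept no reads that overlap several genes, and 91 bases of Esrra exon are shared with Mir6990. Its means ran from LP TTX/NMDA through 2 h Bic, SP TTX/NMDA, LP TBOA, 1 h Bic, SP TTX, 0.5 h Bic and LP TTX to control, with overlap between all neighbours.

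Nrf1 (chr6:30047988-30153458, plus strand) was the steadiest member. Its lowest, median and highest level over the 45 libraries were 13.2, 16.7 and 19.6 CPM. The condition means lay between 15.5 ± 1.23 CPM (SD, n = 5) with LP TTX and 17.2 ± 1.39 CPM in the controls, and neighbouring conditions overlapped throughout. No fit called Nrf1 in any comparison, and its difference after 2 h Bic was -0.12 (95% interval -0.31 to 0.07), with LP TTX against 2 h Bic -0.04 (-0.22 to 0.14) and with LP TTX/NMDA against TTX 0.06 (-0.13 to 0.24).

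Of the proteins that act in mitochondria, Tfam (chr10:71225464-71238280, minus strand) had a lower mean at each longer duration of AP firing, and the fall at 2 h was called. Its level in preparations 1, 3, 6, 7 and 8 was 39.3, 48.3, 42.9, 40.4 and 45.2 CPM in the controls, 38.4, 37.1, 43.7, 33.6 and 42.04 CPM after 0.5 h Bic, 32.3, 35.1, 39.3, 32.6 and 38.8 CPM after 1 h Bic, and 29.2, 28.1, 31.01, 28.4 and 35.1 CPM after 2 h Bic. The 1 h libraries overlapped the controls by a narrow margin and the 2 h libraries did not. Relative to the control of the same preparation, the mean was 90.5% after 0.5 h, 82.7% after 1 h and 70.5% after 2 h (SD 10.4, 7.0 and 7.4). The log2 fold change was -0.15 ± 0.090 (SE; edgeR adjusted p = 0.84) after 0.5 h, and -0.28 ± 0.086 (adjusted p = 0.14; paired fit -0.28, adjusted p = 0.024) after 1 h. After 2 h it was -0.52 ± 0.083 (edgeR adjusted p = 1.8e-05), lower in 5 of 5 preparations.

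With LP TTX, Tfam was higher than in cultures that fired for 2 h, at 33.7, 35.9, 43.2, 36.4 and 43.03 CPM. Preparations 6 and 8 were the highest, and preparation 1 alone lay within the range of 2 h Bic. The passive effect was 0.33 ± 0.078 (SE; edgeR adjusted p = 0.0083), higher in 5 of 5 preparations by 26.7% on average (SD 8.68). After LP TTX/NMDA it had 31.4, 34.6, 33.3, 30.6 and 38.6 CPM, lower than with TTX in 5 of 5 preparations, by -0.20 ± 0.083 on the log2 scale (edgeR adjusted p = 0.090; paired fit -0.16, adjusted p = 0.011). The total effect was 0.14 ± 0.080 (edgeR adjusted p = 0.24; paired fit 0.17, adjusted p = 0.017, or 0.11 without its filter on reads), and with TBOA it was 0.06 (95% interval -0.09 to 0.21). The values of Tfam and Gabpa after 2 h Bic enter the AP firing, the passive and the total comparison alike, so these are not independent of each other. Its means ran from control through 0.5 h Bic, SP TTX, LP TTX, SP TTX/NMDA, 1 h Bic, LP TTX/NMDA and LP TBOA to 2 h Bic, and all neighbours overlapped.

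**Figure D4:**
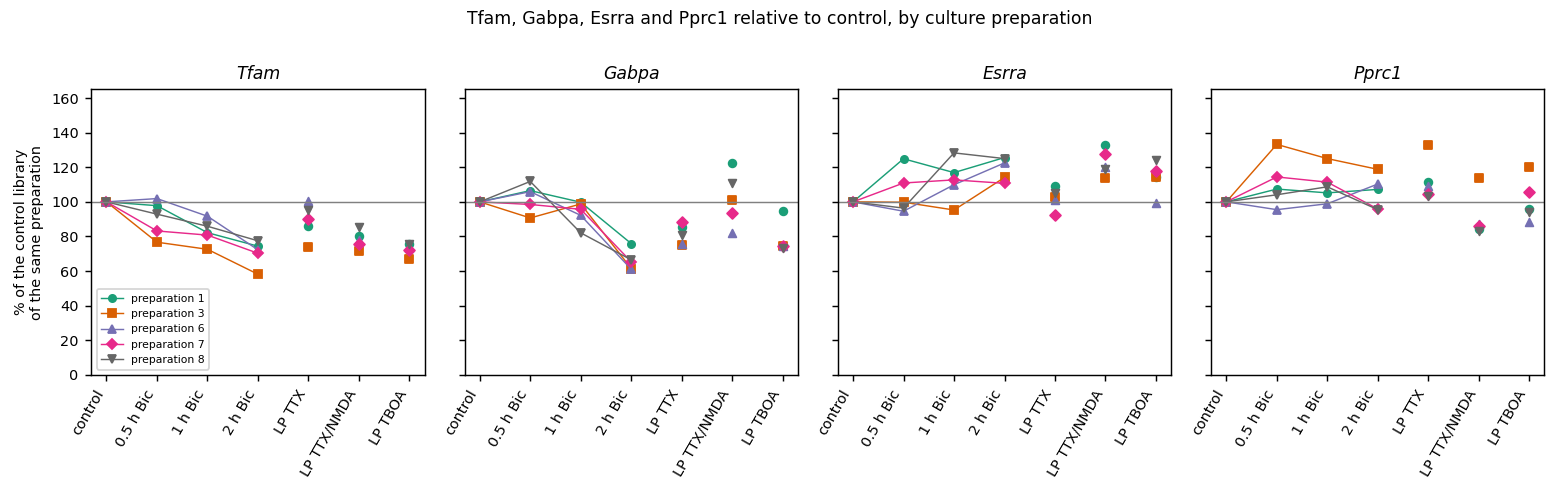
Tfam, Gabpa, Esrra and Pprc1 as a percentage of the control library of the same culture preparation (axis from 0; lines join the Bic time points, and symbols mark the 5 preparations). At 2 h Bic, Tfam lies between 58.2% and 77.5% and Gabpa between 61.1% and 75.9% in the 5 preparations, and Esrra lies between 110.7% and 125.6%.

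Polrmt (the mitochondrial RNA polymerase, chr10:79736123-79746581, minus strand) was called after 2 h Bic in no fit. It had 32.9, 28.3, 32.1, 31.6 and 24.5 CPM in the controls and 30.1, 26.4, 32.2, 27.5 and 25.1 CPM after 2 h Bic, in overlapping groups, with a log2 fold change of -0.09 (95% interval -0.28 to 0.09; edgeR adjusted p = 0.58). With LP TTX it had 26.6, 25.4, 25.8, 25.5 and 21.8 CPM, lower than 2 h Bic in 5 of 5 preparations (-0.19 ± 0.079, edgeR adjusted p = 0.22; paired fit -0.19, adjusted p = 0.0086). With LP TTX/NMDA, at 27.4 ± 3.35 CPM, it was higher than with TTX in 5 of 5 preparations (0.12, edgeR adjusted p = 0.37; paired fit 0.14, adjusted p = 0.031, or 0.17 without its filter on reads). Its means ran from 1 h Bic through SP TTX, SP TTX/NMDA, 0.5 h Bic, control, 2 h Bic, LP TTX/NMDA and LP TBOA to LP TTX, with overlap between all neighbours.

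As a description of how the members vary with each other, levels on the log2 CPM scale were compared over the 45 libraries after the mean of each culture preparation was removed. These libraries share 9 treatments, and the correlations carry no test. Tfam and Gabpa had a Pearson r of 0.667, the highest between members, Ppargc1b and Polrmt 0.535, and Polrmt and Nrf1 0.493. The lowest values were -0.589 between Tfam and Esrra and -0.513 between Ppargc1a and Polrmt, while Ppargc1a and Tfam had -0.011.

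Among 13592 genes with a mean of at least 1 CPM, the nearest to Ppargc1a were Erbb4 (r = 0.844), a neuregulin receptor, Gad2 (0.834), a GABA-synthesizing enzyme of inhibitory neurons, and Ppip5k2 (0.818). The nearest to Ppargc1b were Rnf165 (0.757), Dapk1 (0.725) and Setd1b (0.719), and to Pprc1 they were Rrp12 (0.845), Gm1043 (0.839) and Cabin1 (0.826). Gabpa lay nearest to Mier1 (0.945), Fam76b (0.928) and Mettl14 (0.922), the last a subunit of the RNA N6-adenosine methyltransferase. Tfam lay nearest to Rnf139 (0.938), Zfp952 (0.918) and Pdp1 (0.904), a phosphatase of the pyruvate dehydrogenase complex. Esrra lay nearest to Stk11 (0.858), the kinase upstream of AMP-activated protein kinase, Chchd10 (0.854), a mitochondrial intermembrane space protein, and Alkbh6 (0.847). The nearest to Nrf1 were Cnot3 (0.714), Ppp1r10 (0.691) and B3galt6 (0.663), and to Polrmt they were Plekhm2 (0.889), Zfp865 (0.857) and Pomgnt2 (0.840).

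Of 16 other genes for mitochondrial DNA transcription and maintenance, 4 fell and 0 rose after 2 h Bic (2 higher and 5 lower in the paired fit), where 18.6% of genes with at least 1 CPM were called in either direction, with a median log2 change of -0.19 beside -0.0020 over the genes with at least 1 CPM. The largest falls were of Mterf1a, a mitochondrial transcription terminator, from 1.10 ± 0.123 to 0.387 ± 0.103 CPM (log2 -1.57 ± 0.27, SE; edgeR adjusted p = 5.8e-05), Tefm, the elongation factor of POLRMT (-0.92 ± 0.15, adjusted p = 1.9e-05), and Mterf2 (-0.68 ± 0.13, adjusted p = 0.00017). All 3 were lower in 5 of 5 preparations. For the LP passive effect edgeR called 0 of 16 (1 by DESeq2, 4 at an unadjusted p under 0.05, 3 higher and 3 lower in the paired fit). In the LP active effect, 6 of 16 rose and 2 fell (9 higher and 3 lower in the paired fit, in which 62.1% of genes were called), with a median of 0.21 beside -0.011. The share called by edgeR was near the 46.9% of genes with at least 1 CPM. The largest were rises of Mterf2 (0.56 ± 0.12, adjusted p = 0.00085), of Slirp, a partner of LRPPRC in mitochondrial mRNA stability, from 15.2 ± 1.07 to 21.2 ± 2.2 CPM (0.46 ± 0.090, adjusted p = 0.00023), and of Ssbp1, the mitochondrial single-stranded DNA-binding protein, from 10.4 ± 1.41 to 14.4 ± 0.848 CPM (0.45 ± 0.10, adjusted p = 0.00090). For the LP total effect 7 of 16 rose and 2 fell, beside 11.7% of all genes higher and 11.1% lower. The paired fit called 8 higher and 3 lower, with 56.6% of its genes called. With TBOA 0 of 16 were called (0 by DESeq2, 2 at an unadjusted p under 0.05), beside 0.602% of all genes called by edgeR.

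Of 26 partners and regulators of the PGC-1 family, 3 fell and 1 rose after 2 h Bic, a share of genes called near the 18.6% of genes with at least 1 CPM. The 3 of largest change were falls of Prkaa1, the catalytic α1 subunit of AMP-activated protein kinase, from 28.2 ± 3.02 to 15.4 ± 1.10 CPM (-0.88 ± 0.090, edgeR adjusted p = 2.3e-09), of Creb1, a transcription factor known to induce Ppargc1a, from 48.9 ± 3.93 to 30.5 ± 2.80 CPM (-0.69 ± 0.082, adjusted p = 6.9e-08), and of Sirt1, the deacetylase of PGC-1α (-0.50 ± 0.11, adjusted p = 0.0014). All 3 were lower in 5 of 5 preparations. For the LP passive effect 5 of 26 rose and 0 fell (9 higher and 8 lower in the paired fit). With NMDA, 10 of 26 fell and 1 rose against TTX (11 lower and 5 higher in the paired fit, in which 62.1% of genes were called), with a median of -0.07. The share called by edgeR was near the 46.9% of genes with at least 1 CPM. The largest falls were of Camk4, a nuclear calcium/calmodulin-dependent kinase, from 402 ± 31.8 to 231 ± 32.2 CPM (-0.81 ± 0.082, adjusted p = 7.1e-09), Ep300, an acetyltransferase (-0.77 ± 0.064, adjusted p = 1.7e-10), and Nrip1, a corepressor that opposes PGC-1α (-0.59 ± 0.075, adjusted p = 4.1e-07). For the LP total effect 8 of 26 fell and 4 rose, beside 11.1% of all genes lower and 11.7% higher. The paired fit called 9 lower and 5 higher, with 56.6% of its genes called. With TBOA 0 of 26 were called by edgeR and DESeq2, with 4 at an unadjusted p under 0.05, beside 0.602% of all genes called by edgeR.

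Of 18 textbook targets of PGC-1, NRF1 or ERR, 1 rose and 0 fell after 2 h Bic (3 higher and 2 lower in the paired fit), with a median of 0.04. This was Vegfa, which encodes an angiogenic growth factor, from 78.6 ± 7.82 to 125 ± 9.08 CPM (0.66 ± 0.081, edgeR adjusted p = 1.2e-07). For the LP passive effect 0 of 18 rose and 1 fell (4 lower in the paired fit). With NMDA, 7 of 18 rose and 2 fell against TTX (11 higher and 2 lower in the paired fit, in which 62.1% of genes were called), with a median of 0.14 and a share called near the 46.9% of genes with at least 1 CPM. The largest rises were of Pdk4, a kinase that inhibits pyruvate dehydrogenase (0.96 ± 0.21, adjusted p = 0.00088), Cpt1a, the carnitine palmitoyltransferase of fatty acid oxidation, from 20.1 ± 5.36 to 36.8 ± 10.5 CPM (0.87 ± 0.15, adjusted p = 6.3e-05), and Ucp2, an uncoupling protein (0.72 ± 0.18, adjusted p = 0.0032). In this comparison the median log2 change of the 6 astrocyte markers was 0.84, and its part in these rises was not tested. For the LP total effect 7 of 18 rose and 1 fell, beside 11.7% of all genes higher and 11.1% lower. The paired fit called 9 higher and 2 lower, with 56.6% of its genes called. With TBOA 1 of 18 fell and 0 rose in edgeR and in the paired fit, beside 0.602% and 2.67% of genes called.

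Of 11 genes of mitochondrial dynamics and import, edgeR called 0 after 2 h Bic (2 by DESeq2, 2 at an unadjusted p under 0.05, 1 in each direction in the paired fit). It called 0 for the LP passive effect (1 by DESeq2, 2 at an unadjusted p under 0.05, 2 in each direction in the paired fit). With NMDA, 5 of 11 fell and 1 rose against TTX (5 lower and 4 higher in the paired fit), with a median of -0.09, beside 46.9% of genes with at least 1 CPM called. The largest falls were of the inner-membrane fusion GTPase Opa1, from 236 ± 12.2 to 176 ± 13.2 CPM (-0.44 ± 0.067, edgeR adjusted p = 8.3e-06), the import receptor Tomm70a (-0.41 ± 0.074, adjusted p = 9.1e-05) and the mitofusin Mfn2 (-0.35 ± 0.064, adjusted p = 9.9e-05). For the LP total effect 5 of 11 fell and 2 rose, beside 11.1% of all genes lower and 11.7% higher. The paired fit also called 5 lower and 2 higher, with 56.6% of its genes called. With TBOA 0 of 11 were called by edgeR and DESeq2, with 1 at an unadjusted p under 0.05, beside 0.602% of all genes called by edgeR. The median log2 change of the 9 neuronal markers with NMDA against TTX was -0.16, and its part in these falls was not tested.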

How the data were processed

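Poly-A RNA of 45 cultures was sequenced by the authors with a directional library kit, single-end with 75 cycles. Per the labels and the study's methods, reads were demultiplexed with bcl2fastq (2.20.0.422), aligned with STAR (2.5.4b) to GRCm38 with Ensembl release 94, and counted per gene and strand with featureCounts (1.6.5) without multimapping reads or reads overlapping several genes. The deposited values are these raw counts, without normalization. The counts give depths of 11316580 to 81129276 per library. Gene names came from GENCODE M21 for 54409 of 54532 identifiers.

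Each comparison was fitted on the libraries of its conditions with edgeR (4.0.16; TMM, quasi-likelihood test, two-sided, genes with at least 1 read in any library, Benjamini-Hochberg adjusted p under 0.05), in 12 comparisons and 2 interactions. CPM values use TMM library sizes. The replicate number is the culture preparation in the labels: over 13592 genes, deviations from condition means correlated by 0.433 on average between libraries of the same preparation (-0.289 to 0.773) and by -0.107 between different ones, so a paired fit with the preparation as a block and edgeR's filterByExpr is given where it changes a call. p-values of the unpaired fits weigh a difference against the spread between the libraries of a condition. Those of the paired fit weigh it against the spread left once the preparation means are removed. Both draw the spread of a gene toward that of other genes. Intervals are 95% intervals of the fit.

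Alternatives were DESeq2 (1.42.0), RLE scaling, filterByExpr, the block with either filter, all 45 libraries in 1 fit, and leaving out each preparation. The members and lists were chosen with earlier results of these data known. Named were all 8 members, up to 3 called genes per list with the largest change in 2 h Bic against control and in the LP active effect, and the 3 genes most correlated with each member. The fit was tested on simulated data, where the unpaired fit made more false calls than its nominal rate, so the shares of genes called are least certain where few genes were called (0.5 h Bic, the SP passive effect and the interaction of the passive effects). Promoter sequences are from RefSeq; that of Ppargc1b is not analysed here.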

Additional observations from a re-analysis of the deposited data

Results flagged for a closer look

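In 6 of the 72 groups of 5 libraries (8 genes in 9 conditions), 1 library stood apart from the other 4 by Dixon's test at its 95% critical value. Chance gives about 1 in 20 groups. Of these, 3 were from preparation 6. Ppargc1a had 80.6 CPM in preparation 6 after 1 h Bic (others 63.2 to 67.6 CPM) and 94.3 CPM in preparation 6 with LP TTX (others 77.0 to 78.7 CPM). Ppargc1b had 7.89 CPM in preparation 6 with SP TTX/NMDA (others 5.72 to 6.05 CPM). Pprc1 had 25.4 CPM in preparation 3 of the controls (others 30.9 to 32.9 CPM). Nrf1 had 19.6 CPM in preparation 8 of the controls (others 16.3 to 16.7 CPM). Polrmt had 21.8 CPM in preparation 8 with LP TTX (others 25.4 to 26.6 CPM). Tfam, Esrra and Gabpa had no such library in any condition.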

How the results depend on the processing

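Over 112 member and comparison pairs, no called change turned its direction under any alternative. With the culture preparation as a block, 13 pairs were newly called, and 18 with the block and filterByExpr together. The block ended no call, and beyond these it changed no other call. Called only with the block and filterByExpr together were Ppargc1b and Polrmt for the LP active effect and Tfam for the LP total effect. The same held for Pprc1 with TTX/NMDA against TBOA and for Ppargc1a with LP TTX/NMDA against 1 h Bic. The number of members called rose from 0 to 1 for 1 h Bic and for spillover and from 0 to 2 for the SP total effect and for the interaction of the active effects under either block. For the LP passive effect it rose from 3 to 6 under either block, and for TTX/NMDA against 1 h Bic from 1 to 3 with the block and to 4 with the block and filterByExpr. With that last fit the LP active effect went from 3 to 6 and TTX/NMDA against TBOA from 1 to 2. DESeq2 gave 1 member for spillover, 1 for the interaction of the active effects and 2 for TTX/NMDA against 1 h Bic, and filterByExpr without the block gave 1 and 2 for the last pair of results. RLE scaling and the fit of all 45 libraries changed 1 call each, both of Esrra. Leaving out each preparation in turn gave 1 to 4 members for the LP passive effect, with Tfam the member left without preparation 3, 6 or 7, 1 to 2 for the LP total effect, 1 to 2 for TTX/NMDA against 1 h Bic and 0 to 1 for the interaction of the active effects. Ppargc1b, with 72 reads in its lowest library, had the widest intervals of the 8 genes in every comparison.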
